A study of Mus musculus with 20 samples.

Results

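Gene expression in CD8+ effector T cells recovered from 3 target organs of acute graft-versus-host disease was compared with that in the same kind of cells recovered from peripheral blood. The comparison took all 20 arrays of the series, 15 from organs (5 liver, 5 lung, 5 small intestine) and 5 from blood. For each replicate number the liver, lung and small intestine arrays were averaged and the blood array of the same number, which lay on the same slide, was subtracted, giving 5 within-slide differences per gene. The recipients were female C57Bl/6 m-act OVA mice aged 8 to 16 weeks, which carry an ovalbumin transgene driven by the broadly active CAG promoter. They had received 11 Gy of total body irradiation in 2 fractions, 3000000 marrow cells and 15000000 splenocytes, and cells were taken 4 days later. The sorted cells were CD45.1 OT-I CD8+ T cells, whose transgenic receptor recognises an ovalbumin peptide, whereas all other grafted cells and the recipients were CD45.2. Organ and blood cells thus shared the kind of host, irradiation, graft, receptor specificity and time, and differed in the site of recovery. Any difference between sites in how cells were prepared or in sort purity cannot be told apart from the site itself. No untransplanted or antigen-free group entered the comparison. The labels do not tie a replicate number to an animal, so the p-values measure the spread between slides, which may in part be technical.

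A cytotoxic T cell that meets its antigen first induces immediate early genes, which encode transcription factors such as Fos, Egr1 and Nr4a1, together with phosphatases and NF-kB inhibitors that limit the same signals. Cells that enter tissue are known to lower the sphingosine phosphate receptor S1pr1, which guides exit into blood and lymph, and to raise Cd69, which antagonises it. Donor T cells that injure liver, gut and lung in graft-versus-host disease reach these organs through the blood.

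Signals are given as log2 units relative to the 75th percentile of each array, so a negative level lies below that percentile, and a difference of 1 unit is 2-fold. The 75th percentile lay between 823.2 and 2848 intensity units on the 20 arrays, and per array 22.6 to 38.7% of probes stood well above background. The defining T cell genes were present at every site. Cd3e, a chain of the T cell receptor complex, ranged over the organ arrays from 4.71 to 6.53 with a median of 5.93, against 5.78 to 6.28 in blood, and Cd8a over the organ arrays from 2.07 to 5.08 with a median of 4.19, against 4.04 to 5.08 in blood. The organ and blood ranges of both genes overlapped, as did those of the leukocyte gene Ptprc, which differed by -0.21 ± 0.26 (SE, n = 5 slides; limma adjusted p = 0.55). The mean level of 9 Paneth cell markers was 2.15 on the array labelled liver 5 and -3.11 on the array labelled small intestine 5, whereas the other small intestine arrays lay between 0.81 and 5.99. These 2 arrays thus went against their labels for this marker list. They lie on 1 slide and enter the organ mean with equal weight, so the pooled difference of that slide would be the same number if they were exchanged, but the separate liver and small intestine values below depend on the labels as given. The lung array of slide 3 also stood apart, with 13 alveolar macrophage markers at a mean of -2.18, against 2.16 to 5.07 on the other lung arrays.

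A gene was tested where some site had it well above background on 4 or more of its 5 arrays, which left 8057 genes. Of these, 86 were higher and 207 lower in the organs than in blood at an adjusted p under 0.05 in limma, which is 1.07% and 2.57% of the genes tested. Of the 293 genes, 291 differed in the same direction on 5 of 5 slides, which follows largely from calling them on these same differences. The median of all tested genes was -0.22, so the median gene also lay below blood, and 481 genes were higher and 1879 lower at an unadjusted p under 0.05. The organ difference of the called genes was shared in sign by the 3 organs for 72 of the 86 higher and 205 of the 207 lower genes. The 3 organs make up the mean that was tested, so these 2 counts only describe the called genes. All 15 organ arrays lay above the blood array of their slide for 7 of the called higher genes, against 12 of all genes tested (0.149%), and below it for 67 of the called lower genes, against 201 of all genes tested (2.49%). The 15 organ arrays lay entirely above the 5 blood arrays for 1 tested gene (0.0124%), the called gene Rhob, and entirely below them for 23 tested genes (0.285%), of which 11 were called. The counts depended strongly on the setting, between 0 and 598 genes over 39 alternatives. Stricter filters on dim probes left some genes untested in 1 or 2 of these alternatives, and in the counts per gene below an untested gene is counted as not passing. A fit of the 20 arrays with 1 coefficient per site called 12 genes, the median of the 3 organs in place of their mean called 0 with 1878 at an unadjusted p under 0.05, and leaving out slide 5 or the small intestine arrays also called 0. The split moved with the scaling, to 12 higher and 8 lower with each array scaled to its median and to 92 higher and 453 lower with scaling on probes well above background on all 20 arrays.

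**Figure D1:**
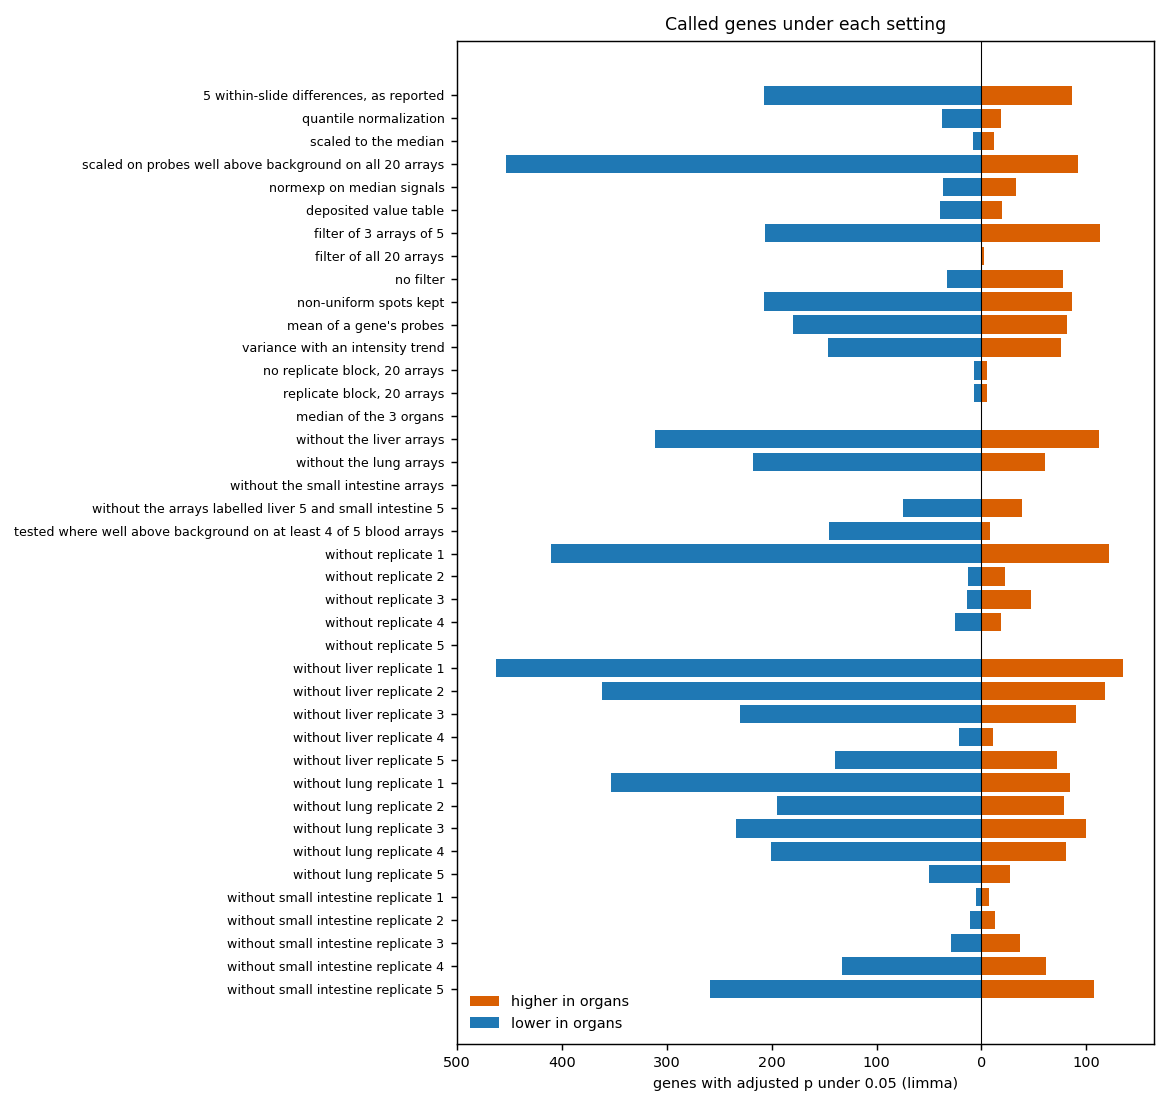
Number of genes with an adjusted p under 0.05 in limma (horizontal axis) under the reported setting and each alternative (rows); bars to the right are genes higher in organs and bars to the left genes lower in organs. The reported setting gives 86 higher and 207 lower genes, and the 20-array fits give 5 higher and 7 lower genes.

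The 10 genes called both in the 5 within-slide differences and in the 20-array fits with and without the slide as a block were Cd83, Dusp1, Cxcl10, Fos and Rhob, which rose in the organs, and Haspin, Poc1b, Gemin5, Ercc2 and Mtfr1, which fell. Rhob and the last 4 of the lower genes were picked out after their values were seen. Cd83, an immunoglobulin-family surface protein induced by NF-kB in activated lymphocytes and dendritic cells, ranged from 0.43 to 6.11 over the organ arrays with a median of 4.58, against 0.49, 1.84, -0.06, 0.11 and 1.56 in blood. The liver and lung arrays of slide 3, at 1.62 and 0.43, fell within the blood range, and the other 13 organ arrays lay above it. The mean difference of Cd83 was 3.26 ± 0.25 (SE, n = 5 slides), a 9.58-fold difference, with an adjusted p of 0.01. Small intestine had a Cd83 difference of 4.16, liver 3.7 and lung 1.91. Dusp1, a phosphatase that switches off MAP kinases, lay between 0.87 and 3.15 over the organ arrays with a median of 2.37, against 0.73, 1.32, -0.33, -0.86 and -0.04 in blood. The small intestine array of slide 4 lay below the highest blood array, and the other 14 organ arrays lay above it. Dusp1 differed by 1.99 ± 0.22 (SE, n = 5 slides; 3.97-fold, adjusted p = 0.012), with 2.05, 2.1 and 1.81 in liver, lung and small intestine. Both genes were well above background on all 20 arrays and passed the test in 36 of the 39 alternatives.

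Cxcl10, a chemokine that attracts Cxcr3-bearing T cells, ranged from -1.14 to 4.02 over the organ arrays with a median of 1.56, against -1.4, 0.06, -1.9, -3.38 and -1.69 in blood. The organ and blood ranges overlapped across slides, while every organ array exceeded the blood array of its own slide. Cxcl10 was well above background on 13 of 15 organ arrays but on 1 of 5 blood arrays, so most of its blood levels, and with them the size of the difference, rest on dim signal. The difference between the measured signals was 3.28 ± 0.31 (SE, n = 5 slides; adjusted p = 0.012), and it passed in 34 of 39 alternatives. Fos, a subunit of the AP-1 transcription factor, ranged from 0.91 to 4.44 over the organ arrays with a median of 2.72, against 1.28, 1.48, -2.83, -3.71 and -2.05 in blood. Blood was higher on slides 1 and 2 than on the other 3 slides, so the within-slide differences of Fos spread from 1.62 to 5.46. Fos was well above background on all 15 organ arrays and on 2 of 5 blood arrays, so the size of its difference rests in part on dim blood signal. The measured signals of Fos differed by 3.7 ± 0.56 (SE, n = 5 slides; adjusted p = 0.025), and it passed in 29 of 39 alternatives. Rhob, a small GTPase of endosomes that is itself an immediate early gene, ranged from -0.56 to 0.76 over the organ arrays with a median of 0.43, against -1.05, -0.89, -1.36, -0.89 and -0.71 in blood. No organ array of Rhob lay within the blood range, and its difference was 1.22 ± 0.2 (SE, n = 5 slides; 2.33-fold, adjusted p = 0.029), called in 24 of 39 alternatives. Rhob was well above background on 3 of 5 blood arrays.

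**Figure D2:**
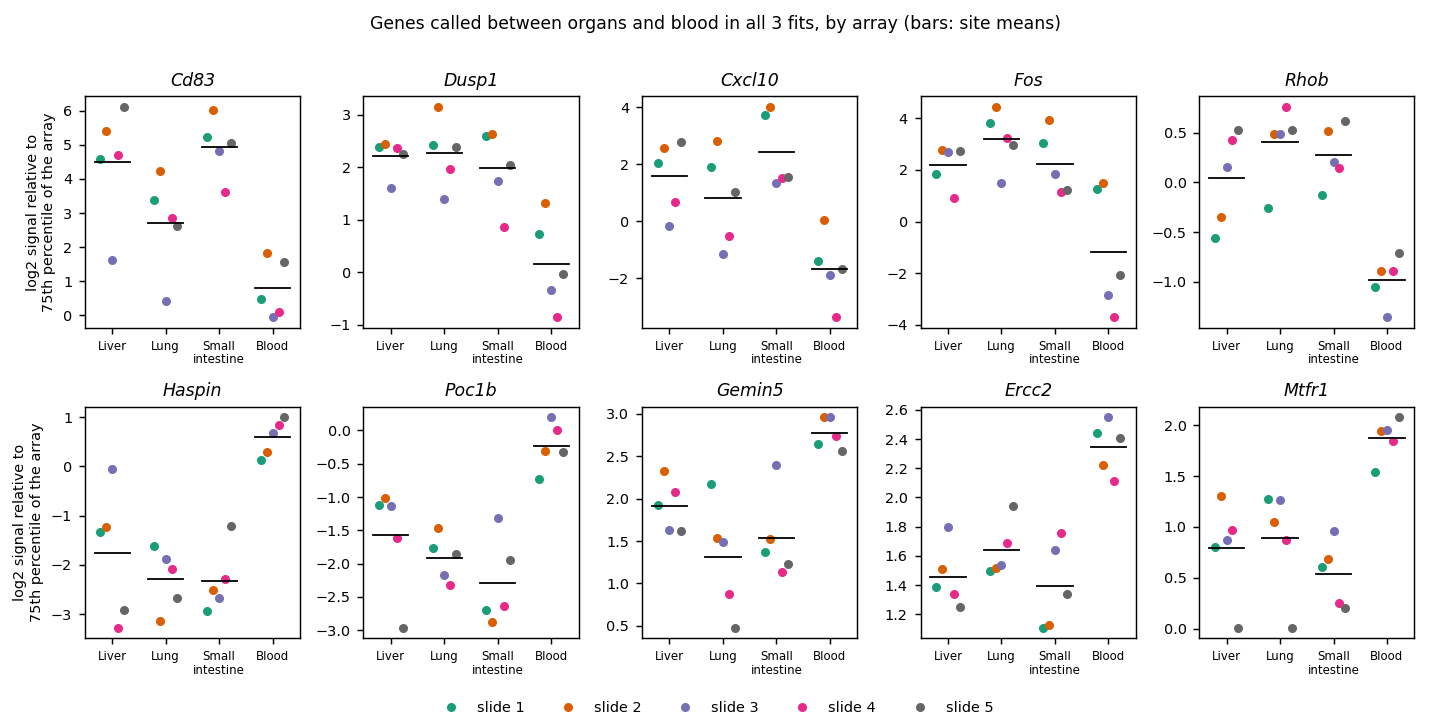
Level of each of the 10 genes called in all 3 fits (vertical axes, log2 signal over the array's 75th percentile) on every array of liver, lung, small intestine and blood (horizontal axes); points are arrays coloured by slide and bars are site means. In the upper row the organ means lie above blood, as for Rhob, whose organ arrays range from -0.56 to 0.76 against -1.36 to -0.71 in blood; in the lower row they lie below blood.

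The promoter windows of 3 of these genes are printed because the genes rose together in the organs and differ in the letters that precede their start sites. Of the 5 higher genes, 4 had a RefSeq window (GRCm38.p6) of 250 bases before and 50 after the start: Dusp1 at chr17:26508423-26508722 on the minus strand, Cxcl10 at chr5:92348840-92349139 on the minus strand, Fos at chr12:85473640-85473939 on the plus strand, and Rhob. Capitals mark matches, on either strand, to the cAMP response element (TGACGTCA), the AP-1 element (TGANTCA), the TATA box (TATAAA), the NF-kB consensus or the CArG box bound by serum response factor.
Dusp1: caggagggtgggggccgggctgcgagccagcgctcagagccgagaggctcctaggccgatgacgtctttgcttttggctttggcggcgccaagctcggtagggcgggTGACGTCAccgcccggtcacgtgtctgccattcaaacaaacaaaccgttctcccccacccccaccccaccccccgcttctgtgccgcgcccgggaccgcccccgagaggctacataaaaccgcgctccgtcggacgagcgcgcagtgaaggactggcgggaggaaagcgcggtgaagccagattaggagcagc
Cxcl10: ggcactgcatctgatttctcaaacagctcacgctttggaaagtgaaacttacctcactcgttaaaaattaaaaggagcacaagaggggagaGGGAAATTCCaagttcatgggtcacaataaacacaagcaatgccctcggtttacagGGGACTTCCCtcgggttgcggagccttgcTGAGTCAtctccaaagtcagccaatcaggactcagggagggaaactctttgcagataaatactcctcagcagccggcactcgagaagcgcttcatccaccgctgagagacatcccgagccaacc
Fos: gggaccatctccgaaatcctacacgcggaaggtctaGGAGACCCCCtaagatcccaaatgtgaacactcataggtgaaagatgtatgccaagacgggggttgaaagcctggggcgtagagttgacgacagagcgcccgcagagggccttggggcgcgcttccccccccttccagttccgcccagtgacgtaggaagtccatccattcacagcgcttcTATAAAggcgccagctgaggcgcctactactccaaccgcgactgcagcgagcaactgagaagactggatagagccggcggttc
The Dusp1 window held a cAMP response element at position -143 from the start, which 1.79% of all 32851 mouse promoter windows hold. The Cxcl10 window held NF-kB matches at -159 and -103 (4.51% of windows hold at least 1) and an AP-1 match at -74 (7.81%). The Fos window held an NF-kB match at -214 and a TATA box at -33 (13.6%). No CArG match, found in 1.63% of windows, lay in these windows, and the Rhob window held none of the 5 motifs. Bases outside the windows and partial matches were not searched, so a motif missing here may lie elsewhere. The matches describe these letters and show neither binding nor a cause.

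Immediate early genes lay above blood as a group. Of 29 listed, 19 were tested, 3 rose (Fos, Nr4a1 and Egr1) and 0 fell, against 1.07% of all genes tested called higher. Fos entered the test only through the organs, where it is high. A positive difference was found for 18 of the 19, against 36.6% of all genes tested. The median difference of the 19 was 0.84, against -0.22 over all genes tested. It was positive on all 5 slides, with 0.15 on slide 3 and 0.91 to 1.49 on the others. Small intestine, liver and lung had medians of 0.92, 0.91 and 0.72, and the pooled median stayed between 0.5 and 1.05 over the alternatives. Nr4a1, an orphan nuclear receptor induced by antigen receptor signals, ranged from 3.5 to 6.01 over the organ arrays with a median of 4.77, against 2.83, 3.93, 4.18, 2.5 and 2.98 in blood. The difference of Nr4a1 was 1.5 ± 0.32 (SE, n = 5 slides; adjusted p = 0.049), it was 0.15 on slide 3 against 1.34 to 2.52 on the others, and it passed in 13 of 39 alternatives. Egr1, a zinc finger factor downstream of the MAP kinase Erk, differed by 1.31 ± 0.27 (adjusted p = 0.045) and passed in 14 of 39. Jun, the AP-1 partner of Fos, differed by 1.29 ± 0.29 without passing (adjusted p = 0.054), with organ arrays from 0.34 to 2.54 and a median of 1.61, against 0.88, 1.06, -0.24, 0.01 and -0.11 in blood.

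Among 7 tested MAP kinase phosphatases, which limit these signals, Dusp1 rose and Dusp7, which acts on Erk, fell, and the median was 0.14. Dusp7 lay between -2.99 and 2.27 over the organ arrays with a median of 0.59, against 1.28, 1.83, 2.42, 2.61 and 1.9 in blood. The lowest organ values came from small intestine arrays 1 to 4 and the array labelled liver 5, which lay between -2.99 and -2.43. Its difference was -2.21 ± 0.24 (SE, n = 5 slides; adjusted p = 0.012), and the small intestine (-3.88) exceeded liver (-1.73) and lung (-1.03) in size. The list of NF-kB genes held subunits, inhibitors and the NF-kB-induced surface protein gene Cd83. Of its 14 tested members 1 was called, Cd83, which rose and is neither a subunit nor an inhibitor. Of the 14 differences 12 were positive, against 36.6% of all genes tested, and the median was 0.45. Among chemokines, 7 were tested, Cxcl10 rose and the median was 0.93. Of 12 interferon-stimulated genes tested, Cxcl10 was again the 1 called, and the median of this list was 0.27. Over all genes tested, 1.07% were called higher and 2.57% lower.

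The chemokine receptor, egress and residency lists had 1 called gene each, against 1.07% of all genes tested called higher and 2.57% called lower, and 1 gene is too few to set a list apart from that background. Cxcr4, the receptor for Cxcl12, was the 1 of 11 tested chemokine receptors that rose, by 1.47 ± 0.27 (SE, n = 5 slides; adjusted p = 0.038), and the median of the list was 0.00. Cxcr4 ranged from -0.12 to 3.23 over the organ arrays with a median of 1.33, against -0.49, 0.1, 0.4, -0.02 and 0.06 in blood, and the ranges overlapped. Cd69 differed by 1.55 ± 0.38 without passing (adjusted p = 0.063), with organ arrays from -0.31 to 3.21 and a median of 1.93, against 0.79, 2.6, 0.51, -1.93 and -0.16 in blood. S1pr1 differed by -1.72 ± 0.45 without passing (adjusted p = 0.069), with organ arrays from -2.47 to 2.73 and a median of 1.72, against 2.36, 2.75, 3.25, 3.88 and 2.35 in blood. In both genes 1 slide stood apart, slide 2 for Cd69 and slide 4 for S1pr1. Of 13 tested egress and recirculation genes, 1 fell, Arhgef18, which encodes a guanine nucleotide exchange factor (-1.11 ± 0.2, adjusted p = 0.037), and the median was -0.41. Ccr7, the lymph node homing receptor, had a positive difference of 1.35 ± 0.33 (adjusted p = 0.059), with organ arrays from 4.01 to 7.42, against 3.02 to 4.97 in blood, whereas Klf2, a factor that drives S1pr1, had a difference of 0.17 ± 0.28 (adjusted p = 0.64). The residency integrin gene Itga1 and the receptor gene S1pr5 were too dim to be tested. The residency list had 16 tested members, of which Nr4a1 rose. Of the 16 differences 12 were positive, against 36.6% of all genes tested, and the median was 0.47. By organ the residency median was 0.86 in small intestine, 0.52 in liver and -0.17 in lung, and on slide 3 it was -0.06. The list shares Nr4a1, Nr4a2, Rgs1 and Rgs2 with the immediate early list. Of the other tissue-homing genes in the fixed set, Itga4, Cxcr3, Cxcr6, Itgb7 and Ccr9 were tested and did not pass, unlike Cxcr4. The differences were -0.89 ± 0.25 for Itga4, -0.82 ± 0.29 for Cxcr3 and -0.81 ± 0.39 for Cxcr6 (adjusted p = 0.076, 0.12 and 0.19). The gut-homing integrin gene Itgb7 differed by -0.01 ± 0.21 (adjusted p = 0.98), and the gut-homing receptor gene Ccr9 by 0.13 ± 0.5 (adjusted p = 0.85), with 1.22 in small intestine, -0.22 in lung and -0.62 in liver.

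Of 11 tested cytotoxic and 8 tested cytokine genes 0 were called higher in the organs, which at 1.07% of all genes called higher is no result about these lists. Perforin (Prf1), the pore-forming protein of cytotoxic granules, was the 1 cytotoxic gene called, and it fell, against 2.57% of all genes called lower. Prf1 ranged from -2.51 to 0.46 over the organ arrays with a median of -0.83, against 0.24, 0.2, 1.64, 1.07 and -0.39 in blood. Its difference was -1.61 ± 0.31 (SE, n = 5 slides; adjusted p = 0.042), and the separate differences were -2.05 in small intestine, -1.67 in lung and -1.11 in liver. Prf1 was well above background on 5 of 5 blood arrays but on 6 of 15 organ arrays. Prf1 passed in 20 of 39 alternatives and Cxcr4 in 18. Fewer cytotoxic cells and less Prf1 RNA per cell cannot be told apart in such bulk samples, and the same holds for every other gene here. Granzyme B (Gzmb) differed by -0.85 ± 0.34 (adjusted p = 0.15) and granzyme A (Gzma) by 0.02 ± 0.21 (adjusted p = 0.94), and the median of the cytotoxic list was -0.02. The cytokine gene Ifng differed by 0.52 ± 0.25 (adjusted p = 0.18). Tnf did not pass (adjusted p = 0.068) and was well above background on no blood array and on 9 of 15 organ arrays. With blood set at the lowest signal well above background, its organ mean was 1.49-fold higher. Il2ra, the high-affinity interleukin 2 receptor chain, differed by -1.11 ± 0.28 (adjusted p = 0.067), while the inhibitory receptors Pdcd1 and Ctla4 differed by 0.22 ± 0.22 and 0.76 ± 0.36 (adjusted p = 0.44 and 0.18). Irf4, a transcription factor that scales with antigen receptor signals, differed by -0.96 ± 0.31 (adjusted p = 0.1), with -2.31 in small intestine, -0.41 in lung and -0.16 in liver.

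Most tested cell cycle genes had negative differences, and a minority passed. Of 20 tested mitosis genes 6 fell and 0 rose, against 2.57% of all genes tested called lower and 1.07% called higher. A positive difference was found for 0 of the 20, against 36.6% of all genes tested. The median was -0.74, against -0.22 over all genes. The mitosis median was negative on all 5 slides (-1.26 to -0.33) and, by organ, was -1.45 in small intestine, -0.77 in lung and -0.24 in liver. It stayed between -1.03 and -0.43 over the alternatives, in which 0 to 11 of the genes were called. Haspin, a kinase that phosphorylates histone H3 in mitosis, ranged from -3.27 to -0.06 over the organ arrays with a median of -2.28, against 0.12, 0.3, 0.67, 0.84 and 1.0 in blood. All 15 organ arrays of Haspin lay below all 5 blood arrays, and the difference was -2.71 ± 0.25 (SE, n = 5 slides; adjusted p = 0.012; -2.35, -2.86 and -2.91 in liver, lung and small intestine). Haspin was well above background on 4 of 5 blood arrays but on 2 of 15 organ arrays, so most of its organ levels are near background, and it passed in 35 of 39 alternatives. Cdca2 (-1.96 ± 0.23, adjusted p = 0.012), which recruits a phosphatase to chromosomes at mitotic exit, and the centriole gene Stil (-1.8 ± 0.31, adjusted p = 0.034) fell as well, with Cdca2 well above background on 8 of 15 organ arrays and Stil on 4. Haspin and Stil entered the test only through blood, where they are high. The proliferation marker Mki67 did not follow, with a difference of -0.05 ± 0.34 (adjusted p = 0.92), and liver lay at 0.74, against -0.38 for small intestine and -0.49 for lung. Mki67 ranged from 1.14 to 5.67 over the organ arrays with a median of 3.83, against 5.56, 5.79, 2.64, 1.95 and 2.34 in blood. Foxm1, a transcription factor for late cell cycle genes, fell by 1.8 ± 0.31 (adjusted p = 0.034), most in small intestine (-2.93), then lung (-1.97) and liver (-0.49). Foxm1 lay between 0.86 and 1.33 on liver arrays 1 to 4, within the blood range of -0.1 to 1.82, and at -3.14 on the array labelled liver 5. Cdca2, Stil and Foxm1 passed in 31, 25 and 22 of 39 alternatives. Of 10 tested G1 cyclins and CDK inhibitors, Ccne1 (-1.44 ± 0.22, adjusted p = 0.026) and Ccnd3 fell. Ccnd3 rested on 1 of its probes, since its probes differed by -0.95 and 0.00. Of 20 tested DNA replication genes 0 passed, with a median of -0.53.

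The other lower genes that met the naming rule were of varied function. The DNA polymerase theta gene Polq (-1.97 ± 0.2, adjusted p = 0.012) ranged from -2.99 to -0.1 over the organ arrays with a median of -2.31, against 0.81, 0.45, -0.94, -0.14 and 0.3 in blood. It was well above background on 5 of 5 blood arrays but on 5 of 15 organ arrays. The kinetochore gene Nsl1, the diphthamide synthesis gene Dph2, the thiamine triphosphatase gene Thtpa, the mitochondrial transporter gene Abcb8, the RNA-binding protein gene Celf4, Kdm8 and Fam78a fell by between 1.85 and 2.35. Dph2, Nsl1 and Celf4 were well above background on 2, 4 and 5 of 15 organ arrays, so most of their organ levels are near background. Etv4 and Prag1 were called too, but their probes disagreed, at -1.92 and -0.01 for Etv4 and at -2.2 and -0.76 for Prag1. Poc1b, a centriole protein gene, ranged from -2.96 to -1.02 over the organ arrays with a median of -1.86, against -0.73, -0.31, 0.2, 0.0 and -0.32 in blood. Gemin5, which loads spliceosomal RNAs, ranged from 0.48 to 2.39 over the organ arrays with a median of 1.53, against 2.64, 2.96, 2.96, 2.74 and 2.56 in blood. Ercc2, a helicase of transcription factor IIH, ranged from 1.11 to 1.94 over the organ arrays with a median of 1.51, against 2.44, 2.22, 2.55, 2.11 and 2.41 in blood. In these 3 genes every organ array lay below every blood array, with differences of -1.7 ± 0.21, -1.19 ± 0.19 and -0.85 ± 0.18 (adjusted p = 0.019, 0.026 and 0.048). Poc1b was well above background on 3 of 15 organ arrays, so the size of its difference rests on dim organ signal, whereas Gemin5 and Ercc2 were well above background on all 20 arrays. The same separation held for Mtfr1, a mitochondrial fission regulator, whose organ arrays ended at 1.3, against a lowest blood array of 1.54. Of the 207 lower genes, 205 were well above background on at least 4 of 5 blood arrays. This follows largely from the filter, which a gene lower in the organs mostly passes through blood.

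**Figure D3:**
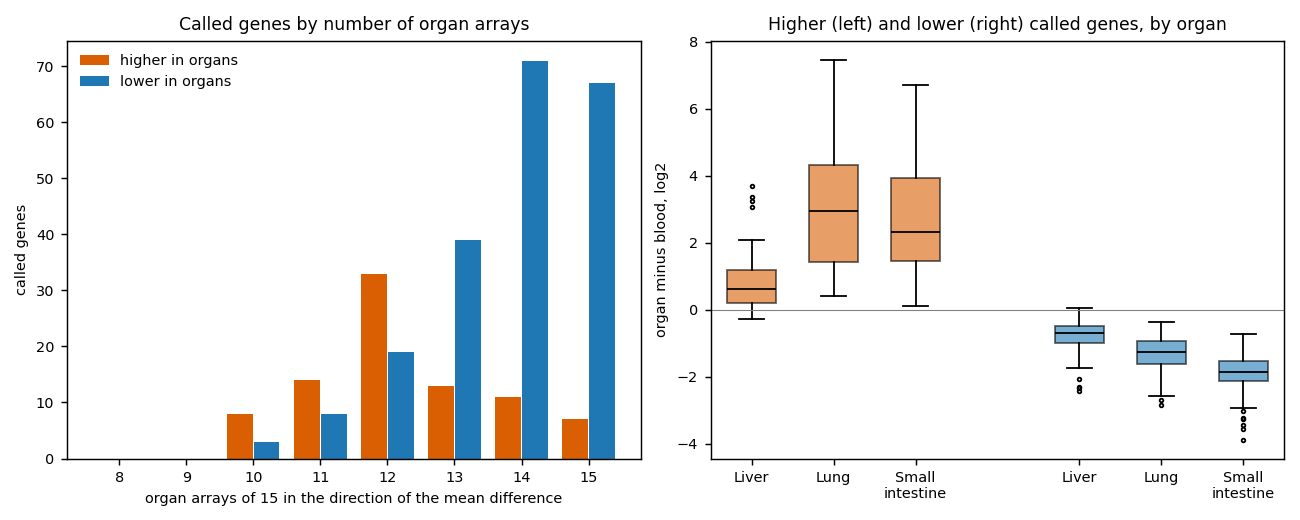
Left, number of called genes (vertical axis) by how many of the 15 organ arrays lay on the side of the mean difference relative to the blood array of their slide (horizontal axis), for genes higher and lower in organs. Right, organ minus blood difference (vertical axis, log2) of the called genes in each organ, as boxes with medians, with the higher genes on the left; medians of the higher genes are 2.96 in lung, 2.32 in small intestine and 0.6 in liver, and of the lower genes -1.26, -1.86 and -0.69.

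The remaining T cell lists held 3 called members. Dhrs3, a retinaldehyde reductase induced by retinoic acid, rose by 2.25 ± 0.4 (SE, n = 5 slides; adjusted p = 0.035) and was the 1 called of 7 tested TGF-beta and retinoic acid response genes, whose median was 0.48. Among 18 actin, annexin and lamin genes, Lmna, which encodes lamins A and C, rose by 1.83 ± 0.38 (adjusted p = 0.045; well above background on 3 of 5 blood arrays) and Lmnb1, which encodes lamin B1, fell by 0.94 ± 0.19 (adjusted p = 0.043). The Lmna difference was 3.23 in lung, 2.0 in small intestine and 0.26 in liver. The T cell receptor complex and CD8 list had 0 of 17 called and a median of -0.23, next to -0.22 for all genes. Among 20 glycolysis, 19 oxidative phosphorylation, 11 integrin and 10 heat shock genes 0 were called, with medians of -0.31, -0.18, -0.21 and -0.11. Of all genes tested, 1.07% were called higher and 2.57% lower. Next to these shares, 0 or 1 called in a direction is no result about the lists of this paragraph.

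**Figure D4:**
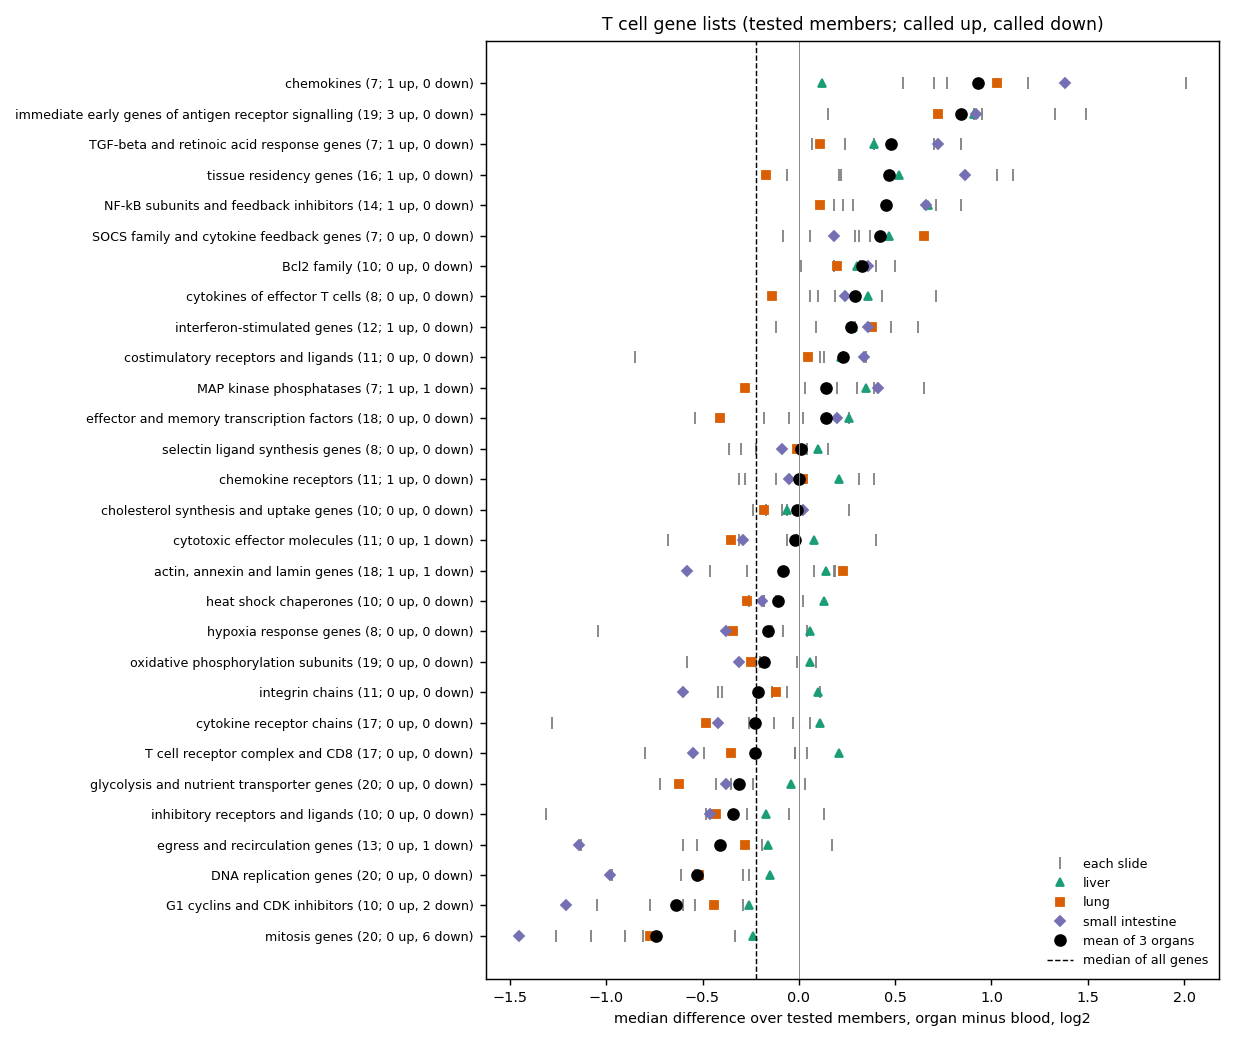
Median organ minus blood difference of the tested members of each T cell gene list (horizontal axis, log2; rows are lists, with members tested and called). Black circles are the mean of the 3 organs, coloured symbols each organ and grey ticks each slide, and the dashed line is the median of all genes at -0.22. Chemokines (0.93) and immediate early genes (0.84) lie highest and mitosis genes (-0.74) lowest. Only tested members count, and some, such as Cxcl10 and Fos, entered the test only through organs where they are high.

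Of the 12 largest positive differences that met the naming rule, 8 belonged to genes on marker lists of cells other than T cells. Of the 86 higher genes, 48 had no blood array well above background, and their size can only be given as a bound. Transferrin (Trf), the iron carrier of plasma, was at least 3.71-fold higher in the organs (adjusted p = 0.021), with measured means of 0.87 in organs and -3.04 in blood. The lysozyme gene Lyz1 was at least 5.87-fold higher (adjusted p = 0.034) and the keratin gene Krt19 at least 3.54-fold higher (adjusted p = 0.038). The MHC class II genes H2-Ab1, H2-Eb1 and H2-DMb1, their invariant chain Cd74 and the cathepsin gene Ctsh also passed, but H2-Ab1 was well above background on 2 of 5 blood arrays and the other 4 genes on 1. Their measured differences, 3.61, 3.67, 3.13, 2.89 and 3.3, therefore rest mostly on dim blood signal. H2-Ab1 ranged from -3.26 to 6.55 over the organ arrays with a median of 3.39, against -2.0, -0.42, -3.58, -3.62 and 0.12 in blood. Low and high organ arrays were far apart, with liver arrays 1, 3 and 4 at or below -2.77 and small intestine arrays 1 and 2 above 6.

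By list, 5 of 6 tested Paneth cell markers were called higher (median 2.5), 5 of 11 alveolar macrophage markers (2.1), 4 of 8 dendritic cell and MHC class II genes (1.86), 3 of 5 small intestinal epithelium markers (1.81), 3 of 8 lung epithelium markers (0.79) and 2 of 4 monocyte and macrophage markers (0.78). No member of these 6 lists was called lower. Of all genes tested, 1.07% were called higher and 2.57% lower. Markers such as Defa29, Ear2 and Sftpc were dim in blood and entered the test only through an organ where they are high. The direction of these counts therefore follows in part from the filter. The alpha-defensin gene Defa29 reached 2.09 to 6.75 on small intestine arrays 1 to 4 and 4.55 on the array labelled liver 5, and lay at or below -2.13 on every other organ array, against -3.66 to -2.03 in blood. Ear2, an eosinophil-associated ribonuclease gene that also marks alveolar macrophages, reached 4.91 to 7.38 on 4 lung arrays and -2.01 on that of slide 3, against -3.53 to -1.89 in blood. Sftpc and Ear10 were well above background on no blood array, so their pooled organ level was at least 3.26-fold higher for Sftpc (limma adjusted p = 0.021) and at least 1.52-fold higher for Ear10 (adjusted p = 0.021). The surfactant gene Sftpc was well above background on 4 lung arrays, at 4.45 to 6.87, and on no liver or small intestine array. Ear10 was well above background on 4 lung arrays, at 3.81 to 6.97, on 2 small intestine arrays and on no liver array. None of 7 tested endothelial markers and 2 B cell markers passed, with medians of 0.67 and 0.48. No erythroid or mast cell marker was tested, as none was well above background on enough arrays.

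Whether these markers moved with the T cell genes that rose, and what part they had in those results, was not tested. The mean level of the 16 dendritic cell and MHC class II genes was -1.19 to 0.58 on liver arrays, -0.3 to 1.55 on lung arrays and -1.21 to 1.66 on small intestine arrays, against -1.54 to -0.5 in blood. That of the 16 monocyte and macrophage markers was -1.76 to -1.3 on liver arrays, -1.1 to 0.31 on lung arrays and -2.09 to 2.53 on small intestine arrays, against -2.14 to -1.02 in blood, and that of the 14 neutrophil markers was -1.71 to 0.94, -1.05 to 0.36 and -1.46 to -0.57, against -2.48 to -0.92. On liver arrays 1 to 4 the dendritic cell and MHC class II genes lay between -1.19 and -0.63, within the blood range. Cd83 lay at 4.58, 5.41, 1.62 and 4.7 on those arrays, against at most 1.84 in blood. The median array of this list was higher for lung (0.55) and small intestine (1.1) than for blood (-0.82). Mean Cd83 was also higher there, at 2.7 for lung and 4.94 for small intestine, against 0.79 for blood. Of the 16 list members 8 were tested. Whether other cells contributed to the Cd83 signal was not tested. The T cell receptor and CD8 list, by contrast with the marker lists, had a mean level of 1.5 to 3.35 over the organ arrays, against 2.97 to 3.2 in blood, and was lowest on small intestine array 4. Restricting the test to genes well above background on at least 4 of 5 blood arrays, a choice made after seeing the data, left 8 higher and 145 lower genes.

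**Figure D5:**
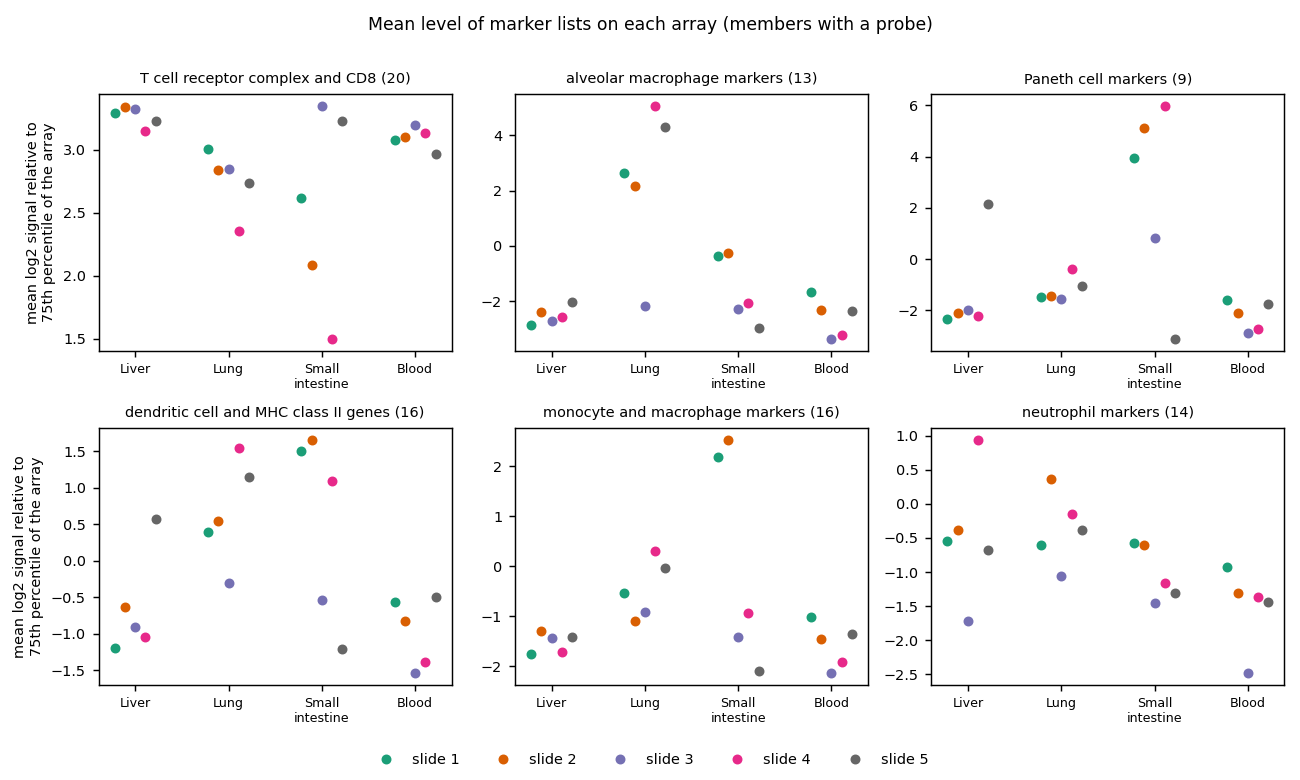
Mean level of 6 marker lists (vertical axes, log2 signal over the array's 75th percentile, over members with a probe) on each array by site (horizontal axes), points coloured by slide. T cell genes lie between 1.5 and 3.35 on organ arrays and between 2.97 and 3.2 in blood; alveolar macrophage markers are high on 4 lung arrays, and Paneth cell markers on 4 small intestine arrays and the array labelled liver 5.

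No gene passed the test of a difference between organs, so the following tallies by organ are descriptions. Of the 86 higher genes, 57 had their largest difference in lung, 26 in small intestine and 3 in liver, and of the 207 lower genes 167 had it in small intestine, 38 in lung and 2 in liver. An F-test over the 15 organ arrays with the slide as a block called 0 genes and found 1425 (17.7% of those tested) at an unadjusted p under 0.05. The 122 called genes among them were 41.6% of the called genes. The same test called 477 genes once slide 5 lost its liver and small intestine arrays. Taken singly, with the blood arrays shared between them, liver and lung each had 0 genes called against blood, with 559 and 2612 at an unadjusted p under 0.05, and small intestine had 28, of which 9 were higher and 19 lower. The unadjusted p of this limma F-test was 0.57 for Dusp1, 0.85 for Nr4a1 and 0.56 for Haspin. Cd83 and Cxcl10 had unadjusted p-values of 0.0034 and 0.0047, both with their largest difference in small intestine.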

How the data were processed

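RNA of the sorted cells was amplified and hybridised to 1-colour Agilent arrays, 4 per slide on 5 slides. Per the file headers, the deposited scanner files hold background-subtracted Cy3 intensity from Feature Extraction 11.0.1.1 with probes on mm9, while version 10.7, and Partek, stand in the submitters' processing notes. The deposited value table holds log2 values that matched quantile-normalized processed signal. Control spots (1377 of 44397) and 24 non-uniform spots were left out, spots of a probe were averaged, processed intensity was divided by the 75th percentile of its array, and log2 was taken. The brightest probe stood for each of the 20886 genes (5512 had several), and 11921 of 39429 probes had no symbol and were not named. Genes passing the background flag on 4 or more of the 5 arrays of some site entered limma 3.58.1 (R 4.3.3), as the intercept of the 5 within-slide differences, with Benjamini-Hochberg adjustment at 0.05. The number of arrays limits the precision. An "at least" fold sets the organ mean against blood at the lowest signal well above background. Slide and replicate number coincide in the file headers. Deviations of same-numbered organ means and blood arrays from their group means correlated between -0.18 and 0.45, so the pairing rests on the shared slide.

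Named genes were the 12 largest called differences in each direction shared by all organs and slides, the 6 with the largest smallest-organ difference, 4 called members at most per T cell list, 3 members per other list, 6 with the largest F over organs, and a fixed set, of which 1 gene is not reported here. Of the markers of other cells and the genes with the largest F, only some are printed. The comparison, lists and genes were chosen with earlier results of these data known. Scripts were tested on simulated data. Alternatives covered scaling, background correction, filters, probes, variance model, slide block, organ summary and arrays left out. Normexp used the median signal, chosen after seeing the files.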

Additional observations from a re-analysis of the deposited data

Results flagged for a closer look

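Of 104 named genes, 3 had 1 slide far from the other 4 in the organ minus blood difference, and chance alone flags about 1 in 20 such groups. Trf, the transferrin gene, differed by 1.01 on slide 3 and by 4.1 to 5 on the other slides. Cd69 differed by -0.31 on slide 2 and by 1.76 to 2.59 on the others, and its blood array of slide 2 was the highest of the 5 at 2.6. S1pr1 differed by -4.01 on slide 4 and by -1.37 to -0.59 on the others, with the highest blood level of the 5 (3.88) and the lowest organ level of the 15 (-2.47) on that slide. The flagged slides were 2, 3 and 4, with 1 gene each.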

How the results depend on the processing

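The count of organs against blood was 293 genes. It was 57 with quantile normalization, 20 scaled to the median, 545 scaled on probes well above background on all 20 arrays, 70 with normexp (33 higher, 37 lower) and 60 with the deposited value table. It was 2 when filtered to all 20 arrays (2 higher), 111 with no filter (78 higher, 33 lower), and 153 with genes well above background on at least 4 blood arrays. The paired design had the slide as its pairing. A fit of 20 arrays gave 12 genes with the replicate block and 12 with no replicate block, all 12 shared with the 293. The median of organs gave 0, leaving out the small intestine arrays 0 (1455 unadjusted), and leaving out the arrays labelled liver 5 and small intestine 5 gave 114. Leaving out 1 slide or 1 organ array gave between 0 and 598 genes, namely 532, 35, 61, 44 and 0 without slides 1 to 5, 598, 480 and 32 without liver 1, 2 and 4, 77 without lung 5, and 12, 24, 66 and 195 without small intestine 1 to 4. The difference between the 3 organs called 0 genes, but 5 with no replicate block and 477 without the 2 arrays named above. The median of all genes moved from -0.22 to -0.38 scaled to the median and to -0.33 scaled on probes well above background on all arrays. Among named genes, called genes kept their call in 1423 gene and setting pairs and lost it in 955. Uncalled genes stayed uncalled with the same sign in 1476 pairs, gained a call in 38 and turned sign in 51, 47 of them in 4 genes with differences near 0. The signs that turned were Klf2 at -0.04 without liver arrays and -0.03 without slide 3 (up to 0.46 without other slides), Cd3e at 0.01 without small intestine arrays, and Ptprc at 0.05 without slide 4 (down to -0.37). Mki67 was 0.1 with quantile normalization and with the deposited table, 0.05 with the median of organs, 0.18 without lung arrays, 0.12 without small intestine arrays and -0.42 to 0.19 leaving out 1 slide or array. Itgb7 was 0.09 with the median of organs and with those 2 arrays of slide 5 left out, 0.17 without small intestine arrays and -0.17 to 0.09 leaving out 1 slide or array. Ccr9 was -0.04 scaled to the median, -0.01 with the median of organs, -0.42 without small intestine arrays, -0.1 with those 2 arrays left out, and -0.28 to 0.69 leaving out 1 slide or array. Gzma was -0.12 with quantile normalization and with the deposited table, -0.14 scaled to the median, -0.09 scaled on probes well above background on all 20 arrays, -0.16 with normexp, 0.00 with the median of organs, -0.01 without liver arrays and -0.1 to 0.16 leaving out 1 slide or array. The causes were not tested. Signal over background limits 48 of the 86 higher genes, which have no measured blood level.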

Other observations

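Among the 86 genes higher in the organs, 11 were well above background on at least 4 of 5 blood arrays, so both sides were measured. Besides those described above they included Cd14, a member of the monocyte and macrophage list, which differed by 1.53 ± 0.27 (SE, n = 5 slides; limma adjusted p = 0.034). They also included Gadd45b, Sgk1, Ermn and Batf2, which were picked out after their values were seen. Gadd45b, a stress-induced gene of the growth arrest and DNA damage family that NF-kB induces, ranged from 1.21 to 4.56 over the organ arrays with a median of 3.11, against 1.05, 2.73, 1.94, 0.06 and 0.18 in blood. It differed by 1.69 ± 0.34 (SE, n = 5 slides; limma adjusted p = 0.042). Sgk1, a kinase induced by serum and glucocorticoids, ranged from 0.47 to 5.4 over the organ arrays with a median of 2.96, against 2.37, 2.52, 1.54, 0.89 and 2.02 in blood, and differed by 1.27 ± 0.22 (adjusted p = 0.034). Its difference was 2.13 in lung, 0.79 in liver and 0.88 in small intestine. Ermn, which encodes an actin-binding protein of myelinating cells, differed by 2.03 ± 0.41 (adjusted p = 0.043) and Batf2, an interferon-induced AP-1 family factor, by 1.08 ± 0.23 (adjusted p = 0.049), and both had small liver differences of 0.39 and 0.12. Gadd45b, Sgk1, Ermn and Batf2 were called in 11 to 20 of 39 alternatives.

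Among genes of other T cell subsets, Il17a differed by 2.82 ± 0.92 without passing (adjusted p = 0.1), with organ arrays from -1.27 to 4.31 and a median of 0.8, against -0.56, -0.3, -0.62, -3.85 and -3.42 in blood. It was well above background on 13 of 15 organ arrays and 2 of 5 blood arrays. The complement gene C3, picked out after its values were seen, lay above the blood array of its slide on all 15 organ arrays and differed by 1.22 ± 0.25 (adjusted p = 0.043), while a further probe of it gave 2.39. On the array labelled liver 5 the gut plasma cell marker Jchain, the Paneth cell gene Defa29 and Dusp7 had levels like those of small intestine arrays 1 to 4.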
